A study of Homo sapiens with 6 samples.

Results

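To study whether the machinery of V(D)J recombination changes when the ETV6/RUNX1 fusion is silenced, 10 genes were followed on 6 expression arrays of the human leukemia cell line REH. The members were RAG1, RAG2 and DNTT, which are specific to lymphocytes, the repair factors LIG4, XRCC4, DCLRE1C, PRKDC, XRCC5 and XRCC6, and the DNA-bending protein gene HMGB1. They were chosen by name, as the catalogue probes whose RefSeq accession belongs to one of these genes. All 10 genes were represented, by 12 of the 34134 catalogue probes, with a pair of probes each for DCLRE1C and PRKDC and 1 probe for each other gene.

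REH was derived from acute lymphoblastic leukemia of B-cell precursors, carries ETV6/RUNX1 and has lost the other ETV6 allele. In the knockdown group, 3 arrays measured cells that received a lentiviral short hairpin RNA (shRNA) against the ETV6 part of the fusion, and in the control group 3 arrays measured cells with a non-targeting shRNA. According to the study's methods, that control was another ETV6 hairpin, which did not hit the fusion transcript, and transduced cells of both groups were sorted for green fluorescent protein. The study calls the samples biological triplicates of a single cell line, so p-values below describe the spread between cultures of REH and not between leukemias.

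V(D)J recombination builds the genes of antibodies and T-cell receptors from separate segments in immature lymphocytes. RAG1 and RAG2 form the recombinase that cuts DNA at the segment borders, HMGB1 helps to bend the DNA for the cut, and terminal deoxynucleotidyl transferase, encoded by DNTT, adds bases without a template at the joints. The breaks are then sealed by non-homologous end joining, which every cell type uses: XRCC5 and XRCC6 encode the Ku proteins that bind the broken ends, PRKDC the kinase DNA-PKcs, DCLRE1C the nuclease Artemis that opens the hairpin ends, and XRCC4 and LIG4 the complex that ligates them. In ETV6/RUNX1-positive leukemia, cuts by the RAG recombinase away from its normal targets are known as a source of secondary deletions.

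The fusion protein keeps the DNA-binding domain of RUNX1, so the promoters of the lymphocyte-specific genes are shown for the letters they hold. The windows run from 250 bases before to 50 after the annotated start, on the strand of the gene, from RefSeq with build GRCh38.p14. The windows are chr11:36510103-36510402 on the plus strand for RAG1, chr11:36598187-36598486 on the minus strand for RAG2 and chr10:96304184-96304483 on the plus strand for DNTT. They were taken by gene name. Whether each lies at the start of the transcript that the array probe measures was not examined. Capitals mark any match, on either strand, to the RUNX letters TGTGGT or TGCGGT, the ETS letters CCGGAAGT, the E-box CAGGTG or the FOXO letters TGTTTAC.
RAG1: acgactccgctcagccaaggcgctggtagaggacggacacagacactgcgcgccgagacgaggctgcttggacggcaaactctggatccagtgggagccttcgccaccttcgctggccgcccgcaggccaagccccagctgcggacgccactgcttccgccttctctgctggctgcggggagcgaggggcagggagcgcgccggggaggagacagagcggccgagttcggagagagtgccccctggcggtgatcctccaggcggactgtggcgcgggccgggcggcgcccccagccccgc
RAG2: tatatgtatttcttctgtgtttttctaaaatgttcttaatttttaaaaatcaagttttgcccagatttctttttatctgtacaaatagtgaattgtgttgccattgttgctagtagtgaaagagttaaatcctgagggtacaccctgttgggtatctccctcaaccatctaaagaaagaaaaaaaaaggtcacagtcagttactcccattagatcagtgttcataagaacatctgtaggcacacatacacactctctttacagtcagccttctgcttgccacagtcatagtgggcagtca
DNTT: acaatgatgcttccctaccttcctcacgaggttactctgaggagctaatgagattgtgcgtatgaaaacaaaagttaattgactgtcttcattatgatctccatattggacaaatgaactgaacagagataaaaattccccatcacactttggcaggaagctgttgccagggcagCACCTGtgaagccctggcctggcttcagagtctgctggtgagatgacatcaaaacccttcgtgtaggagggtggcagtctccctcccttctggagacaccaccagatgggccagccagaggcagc
The only match in these windows was the E-box of DNTT, read as CACCTG and starting 75 bases before the start site. The RUNX letters TGTGGT stand in 13.1% of all 35116 promoter windows and TGCGGT in 7.29%, the ETS letters in 4.14%, the E-box in 20.6% and the FOXO letters in 3.42%. The windows differed in base composition. GC content was 72.3% for RAG1, 36.7% for RAG2 and 49.3% for DNTT, against a median of 58.7% over all windows. For 5 of the other members, 12 alternative windows were listed, with 47.0% to 87.0% GC, and TGTGGT stood in 2 of them, both overlapping windows of LIG4 that share 1 site. The ETS letters stood in 3 of the 12, 1 each of LIG4, DCLRE1C and HMGB1, and the E-box in 4, of LIG4 and DCLRE1C, while TGCGGT and the FOXO letters stood in 0. No binding was measured here, and enhancers lie outside these windows.

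The arrays had median raw intensities of 66 to 75, with negative control spots at 42.25 to 48, and normalized values correlated between arrays with r from 0.986 to 0.996 across probes. Of 57176 probes, 27490 were retained as above the negative controls, and limma with Benjamini-Hochberg adjustment called 478 of these (352 lower and 126 higher in knockdown), which is 1.74%. Called means an adjusted p under 0.05 throughout. At an unadjusted p under 0.05 stood 12.5% of probes, and the 3 control and 3 knockdown arrays did not overlap at 18.9%. With the replicate number as a block, 1038 probes (3.78%) were called. Of the targeted gene, ETV6, 1 of 2 probes was above background, and it measured 7.92, 8.05 and 8.37 in control and 7.50, 7.46 and 7.29 in knockdown. This is -0.70 ± 0.14 (SE) on the log2 scale, with an adjusted p of 0.0513 by limma. The groups did not overlap, and where this probe lies relative to the fused part was not analysed here.

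First, all members were examined together. All 12 probes were well above background on all 6 arrays and all 12 were retained, so no member was lost to the filter. None was called by limma, against the 1.74% of all retained probes. At an unadjusted p under 0.05 stood 2 of 12, the RAG2 probe and the first DCLRE1C probe, and the same 2 were the probes whose groups did not overlap. Both counts are 16.7% of the members, against 12.5% and 18.9% of all retained probes. RAG2 was the lowest of the members, at a log2 fold change of -0.44, and DCLRE1C the highest, at 0.33. The median over the 12 probes was 0.03, against -0.00154 over all retained probes, and 5 of 12 were lower in knockdown, but 1 of 12 (RAG2) with spike-in scaling, which moves the median of all probes by 0.35. In none of 17 other ways to process the data was a member called. At an unadjusted p under 0.05 stood between 0 (slide row as a term) and 4 (spike-in scaling) of them.

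**Figure D1:**
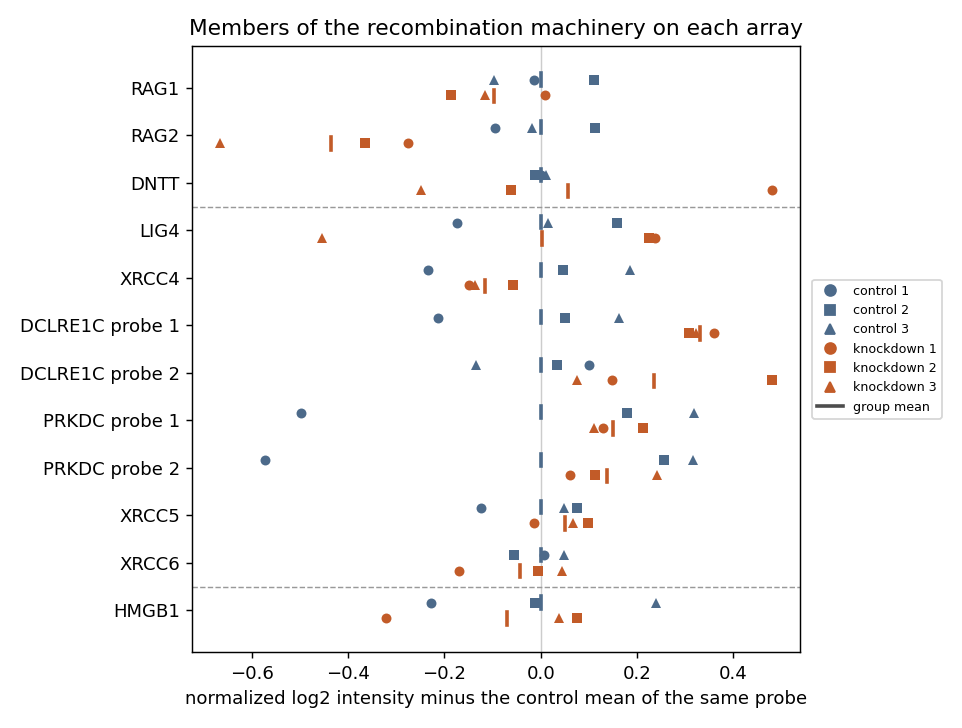
Normalized log2 intensity of the 12 member probes on each of the 6 arrays, relative to the control mean of the same probe (x axis), with control arrays in blue, knockdown arrays in orange, a symbol for each replicate number and a bar for each group mean. Dashed lines part the lymphocyte-specific genes, the repair factors and HMGB1. The blue and orange points separate fully only for RAG2 and the first DCLRE1C probe.

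Next, the lymphocyte-specific members were compared one by one. RAG1, the subunit that holds the active site of the recombinase, measured 15.13, 15.25 and 15.05 on the control arrays and 15.15, 14.96 and 15.03 on the knockdown arrays, on the normalized log2 scale. The groups overlapped. The log2 fold change was -0.10 ± 0.10 (SE, n = 3 per group), with a 95% interval from -0.34 to 0.14 and an adjusted p of 0.758 by limma.

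RAG2, the partner subunit that reads a histone mark of active chromatin, measured 12.00, 12.20 and 12.07 in control and 11.82, 11.73 and 11.43 in knockdown. Every knockdown array lay under every control array. At 18.9% of all retained probes the groups were likewise apart, in one direction or the other. The log2 fold change was -0.44 ± 0.13 (SE), with a 95% interval from -0.73 to -0.14, which on a linear scale is -26.1% with an interval from -39.8% to -9.28%. The unadjusted p was 0.00935, rank 1346 of 27490, and the adjusted p by limma was 0.191, so the probe was not called. With the replicate block, the adjusted p was 0.109. In RNA of whole cultures, fewer expressing cells and less RNA per cell cannot be told apart. RAG2 was lower in knockdown in all 17 alternatives, at -0.56 to -0.08 with adjusted p from 0.0841 to 0.773 by limma. Many of these could not reverse its sign. Changes of filter, test or block kept the value at -0.44, and leaving out arrays cannot reverse groups that do not overlap. The value nearest 0 came from scaling on spike-in controls. Within the lower row of the slide, which held control replicate 3 and all knockdown arrays, the difference was -0.42, with an adjusted p of 0.739 when slide row was a term.

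DNTT measured 14.14, 14.13 and 14.15 in control, an SD of 0.01, and 14.62, 14.08 and 13.89 in knockdown, an SD of 0.38. Knockdown replicate 1 was above all controls and the other knockdown arrays were below them. The log2 fold change was 0.06 ± 0.18 (SE, 95% interval -0.35 to 0.47, adjusted p = 0.929 by limma). It turned to -0.16 without knockdown replicate 1.

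RAG1 and RAG2 are neighbours on chromosome 11, and the genes beside them were read for comparison. TRAF6, which encodes a ubiquitin ligase of immune receptor signalling, lies on the side of RAG1, with PRR5L beyond it, and IFTAP on the side of RAG2. IFTAP measured 8.18, 8.05 and 7.93 in control and 7.93, 7.47 and 7.65 in knockdown. Its log2 fold change was -0.37 ± 0.14 (SE), with an unadjusted p of 0.0286 and an adjusted p of 0.317 by limma. TRAF6 measured 9.24, 9.34 and 9.42 in control and 9.28, 9.12 and 8.95 in knockdown, a change of -0.22 ± 0.12 with an adjusted p of 0.497. Neither was called, and PRR5L was at 0.09.

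**Figure D2:**
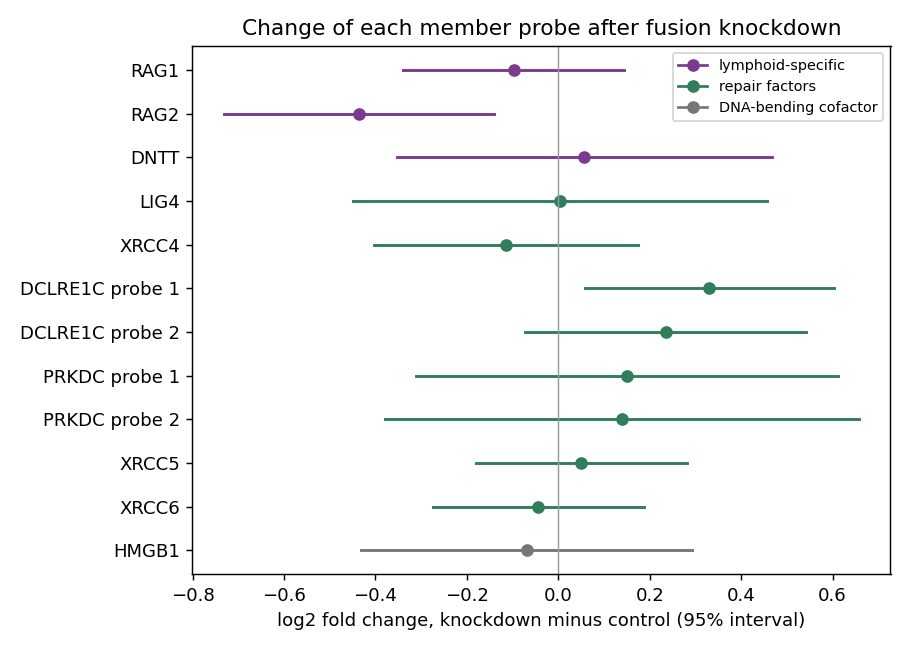
Log2 fold change of each member probe, knockdown minus control (x axis), with 95% intervals from limma, coloured by role, with 3 arrays per group. The intervals of RAG2 (-0.73 to -0.14) and of the first DCLRE1C probe (0.06 to 0.60) leave out 0, and those of the other 10 probes include it. No probe was called after adjustment over all retained probes.

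The repair factors were then taken in the order in which they act. XRCC6, which encodes Ku70, measured 16.76, 16.70 and 16.80 in control and 16.58, 16.75 and 16.80 in knockdown. XRCC5, which encodes Ku80, measured 13.30, 13.50 and 13.48 in control and 13.41, 13.53 and 13.49 in knockdown. Both Ku probes had a within-group SD of 0.09, the smallest of the members, against a median of 0.150 over all retained probes. Their log2 fold changes were -0.04 (95% interval -0.27 to 0.19) for XRCC6 and 0.05 (95% interval -0.18 to 0.28) for XRCC5, narrower than those of the other repair factors.

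PRKDC, which encodes the kinase recruited by Ku, was measured by 2 probes. The first gave 10.35, 11.03 and 11.17 in control and 10.98, 11.06 and 10.96 in knockdown. The second gave 7.64, 8.47 and 8.53 in control and 8.27, 8.33 and 8.45 in knockdown. Control replicate 1 was the lowest array at both probes. The control SDs were 0.44 and 0.50 against 0.05 and 0.09 in knockdown. The log2 fold changes of 0.15 ± 0.20 and 0.14 ± 0.22 (SE) turned to -0.10 and -0.15 without control replicate 1, so even their direction depended on that array. Only 5.98% of retained probes varied more within groups than the second probe.

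DCLRE1C, which encodes Artemis, the nuclease that opens hairpin ends, was likewise measured by 2 probes. The first gave 10.23, 10.49 and 10.60 in control and 10.80, 10.75 and 10.76 in knockdown, and every knockdown array lay above every control array. Its log2 fold change was 0.33 ± 0.12 (SE), with a 95% interval from 0.06 to 0.60, that is 25.7% higher with an interval from 4.11% to 51.9%. The unadjusted p was 0.0233 and the adjusted p by limma was 0.293, so it was not called. The second probe gave 6.53, 6.46 and 6.29 in control and 6.58, 6.91 and 6.50 in knockdown, where the groups overlapped. Its log2 fold change was 0.23 ± 0.13 (adjusted p = 0.531 by limma). Knockdown lay above control in all 3 pairs, a count whose share over all retained probes was not computed. Averaged over the probes, the gene was at 0.28 with an adjusted p of 0.261. Each probe was higher in all 16 alternatives run on single probes, although the second was at 0.11 without knockdown replicate 2. Changes of filter, test or block cannot move these values, and leaving out arrays cannot reverse the first probe. Within the lower slide row, which held a single control array, the first probe was at 0.17 (adjusted p = 0.928 with slide row as a term) and the second at 0.37 (adjusted p = 0.789).

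XRCC4, the scaffold of the ligase, measured 9.68, 9.96 and 10.10 in control and 9.77, 9.86 and 9.78 in knockdown, averages over 4 spots of 1 probe. Its log2 fold change was -0.11 ± 0.12 (SE, adjusted p = 0.762 by limma), between -0.23 and -0.021 when 1 control array was left out. LIG4, the ligase that seals the joint, measured 6.53, 6.86 and 6.72 in control and 6.94, 6.93 and 6.25 in knockdown. Knockdown replicate 3 was the lowest array and the other knockdown arrays the highest, and the change was 0.003 ± 0.20. Its interval from -0.45 to 0.46 covers changes as large as that of RAG2. HMGB1, the cofactor that bends DNA for the recombinase, measured 15.69, 15.91 and 16.16 in control and 15.60, 16.00 and 15.96 in knockdown, with a log2 fold change of -0.07 ± 0.16. HMGB1 has near-identical pseudogene copies, whose signal cannot be told apart here. For all 3 genes the groups overlapped.

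To set the recombinase genes and DNTT against the repair factors, the retained probes of each gene were averaged relative to their control mean, and the genes of each role were then averaged per array. RAG1, RAG2 and DNTT together were at -0.04, 0.07 and -0.03 in control and at 0.07, -0.20 and -0.34 in knockdown. The 6 repair factors were at -0.19, 0.08 and 0.11 in control and at 0.04, 0.14 and -0.02 in knockdown. The lymphocyte-specific mean minus the repair mean was 0.15, -0.01 and -0.14 in control, against 0.03, -0.34 and -0.33 in knockdown. Knockdown was at -0.21 ± 0.21 (SD, n = 3), and control spread with an SD of 0.15, so the groups overlapped. By replicate number, knockdown minus control was -0.12, -0.33 and -0.19, lower in all 3 pairs, with a mean of -0.21 ± 0.11 (SD). It is given without a test, as the genes were chosen with results of these arrays known. Within the lymphocyte-specific role, RAG2 had the lowest log2 fold change, and within the repair role, DCLRE1C had the highest.

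**Figure D3:**
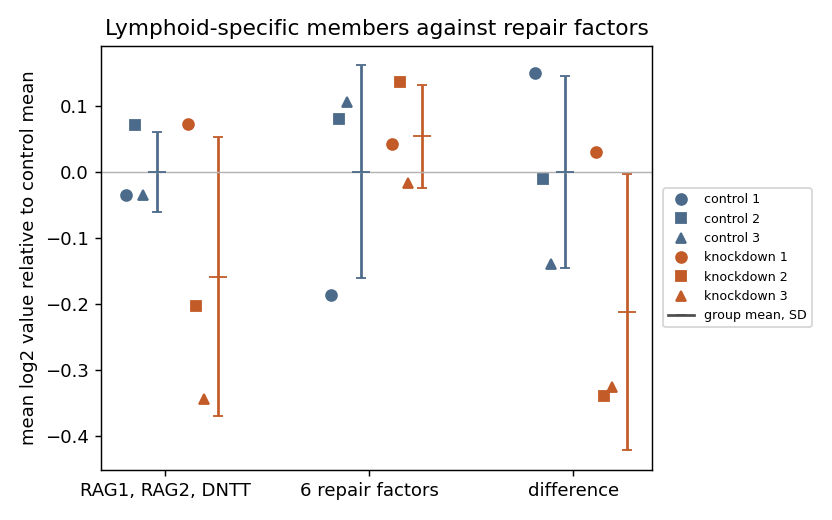
Mean log2 value relative to the control mean (y axis) of RAG1, RAG2 and DNTT, of the 6 repair factors, and the difference of both, on each of the 3 control (blue) and 3 knockdown (orange) arrays. Dashes with bars give the group mean and SD. Knockdown replicates 2 and 3 sit at -0.34 and -0.33 for the difference and knockdown replicate 1 at 0.03, within the control range of -0.14 to 0.15.

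Other genes of the pathway were then examined in 6 lists. Of 65 genes, 64 had a probe and 63 a retained one, by 84 of 88 probes. limma called 1 of the 84, lower in knockdown, and none higher. That is 1.19% against 1.74% of all retained probes. The median over the 84 was -0.00184, 51.2% were lower in knockdown against 50.3% of all retained probes, and the groups did not overlap at 12 probes (14.3%, against 18.9% of all retained probes).

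The called probe belonged to the regulators of RAG transcription, 14 genes with 23 retained probes and a median of -0.07. FOXP1, a forkhead factor required for B-cell development, measured 9.51, 9.48 and 9.42 in control and 8.87, 9.0 and 8.95 in knockdown at this probe, A_33_P3214310. It fell by 0.53 ± 0.09 on the log2 scale, a change that limma put at an adjusted p of 0.0329. The other FOXP1 probes were not called. They changed by -0.21 (A_23_P155257, adjusted p = 0.447) and -0.11 (A_33_P3214303, adjusted p = 0.739). The call itself held in 5 of 16 alternatives and was lost when any 1 array was dropped, and the adjusted p ran from 0.0270 to 0.544. The log2 fold change stayed between -0.56 and -0.47 in these alternatives, except for -0.18 with spike-in scaling. SATB1, a chromatin organizer of lymphocytes, measured 12.31, 12.47 and 12.39 in control and 12.05, 11.90 and 12.09 in knockdown. The groups did not overlap, and the change was -0.38 ± 0.10 with an adjusted p of 0.155. The B-lineage factors FOXO1, EBF1, TCF3 and PAX5 measured between -0.04 and 0.11 at their 6 probes, and none was called. BACH2, a transcriptional repressor of the B lineage, was at 0.48 ± 0.18 (adjusted p = 0.312) and 0.28 ± 0.20 at its probes, the first of which had the highest change of the 84 and was called with spike-in scaling (0.83, adjusted p = 0.0247). SOX4 was at -0.31 and TCF12 at -0.28, and the groups of both overlapped. The other 9 probes of the list, for RUNX1, IKZF1, MYB, LEF1 and GFI1B, lay between -0.26 and 0.19.

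**Figure D4:**
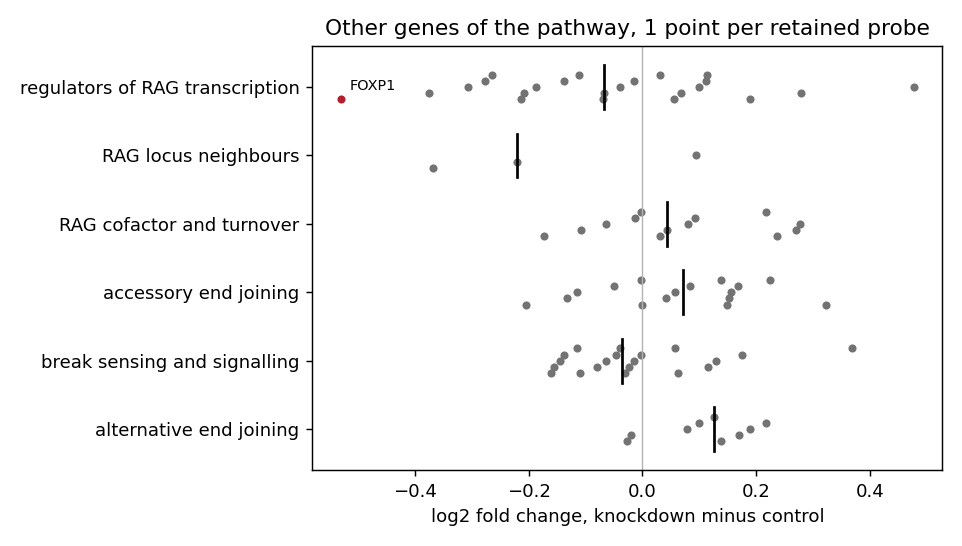
Log2 fold change, knockdown minus control (x axis), of the 84 retained probes in 6 lists of other pathway genes, with 1 point per probe and a black line at each list median. The FOXP1 probe at -0.53, in red, is the called one. List medians lie between -0.22 (3 RAG locus neighbours) and 0.13 (alternative end joining).

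No probe was called in the remaining lists. The factors that assist RAG or turn it over gave 13 probes with a median of 0.04. DDB1, an adaptor of the CUL4 ubiquitin ligase, was at 0.22 ± 0.11 (SE, adjusted p = 0.497) and DNTTIP2, named for its interaction with the transferase, at -0.17 ± 0.09. Accessory end joining factors gave 16 probes with a median of 0.07. PAXX, which helps Ku hold the ends, was at 0.32 ± 0.14 (adjusted p = 0.411), and WRN, the helicase mutated in Werner syndrome, at -0.20 ± 0.10.

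Genes that sense and signal breaks gave 20 probes with a median of -0.04, of which 14 were lower (70%, against 50.3% of all retained probes). At 1 of them the groups did not overlap (5%, against 18.9%) and the unadjusted p in limma was under 0.05 (5%, against 12.5%). MAD2L2, a subunit of the shieldin complex that protects ends from resection, measured 12.52, 12.71 and 12.63 in control and 12.76, 13.08 and 13.12 in knockdown. Its groups did not overlap, and the change was 0.37 ± 0.12 with an adjusted p of 0.262. MDC1, the scaffold at marked chromatin, was at 0.18 ± 0.11. Alternative end joining, the backup route, gave 9 probes with a median of 0.13, of which 2 were lower in knockdown (22.2%, against 50.3% of all retained probes). XRCC1, a scaffold of single-strand break repair, was at 0.17 ± 0.09 with groups that did not overlap, and LIG1, the ligase of replication, at 0.22 ± 0.16, or 0.092 to 0.34 when 1 array was left out.

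Cell identity was read from marker lists. Of 19 probes for B-cell precursor markers, 15 were well above background on all 6 arrays, among them those of CD79A and IGLL1, whereas 1 VPREB1 probe was well above background on no array and the other on control replicate 1 alone. The summed marker level on the log2 scale ran from 18.0 to 18.1 in control and from 18.3 to 18.5 in knockdown. None of the 16 retained marker probes was called by limma, but 9 (56.3%, against 12.5% of all retained probes) stood at an unadjusted p under 0.05 and the groups did not overlap at 10 (62.5%, against 18.9%). The lowest adjusted p of the list was 0.0541. Of the 16, 2 were lower in knockdown, among them a CD34 probe at -0.35 (unadjusted p = 0.00802 in limma) that was well above background on 2 arrays. The median of the list was 0.35, above that of every member list. The part of this shift in the values of RAG2 and DCLRE1C was not tested. Of 11 T-cell probes, for the other lineage that uses the recombinase, 5 were well above background on all 6 arrays, among them probes of CD3D, CD4, CD8A and BCL11B, but CD3E and CD3G were not well above background on any. None of 8 retained T-cell probes was called by limma. The 1 at an unadjusted p under 0.05 (12.5%, as of all retained probes) was that of CD3E. The groups did not overlap at 3 (37.5%, against 18.9%): CD3E (0.32) and CD4 (0.10) were higher in knockdown and 1 BCL11B probe (-0.14) was lower. The summed T-cell level, most of it from CD4, ran from 12.80 to 12.87 in control and from 12.87 to 12.89 in knockdown. Of 9 myeloid probes, 3 were well above background on all arrays and 4 were retained. MPO, the granule peroxidase, was the called one, at -2.02 ± 0.16 (adjusted p = 0.00107), and it made up most of the summed myeloid level, which ran from 13.9 to 14.1 in control and from 11.9 to 12.5 in knockdown. Without MPO, the sum ran from 9.19 to 9.53 in control and from 9.15 to 9.63 in knockdown. None of 4 retained erythroid probes was called, and none stood at an unadjusted p under 0.05 in limma.

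Finally, the probes whose profile over the 6 arrays was most like that of each lymphocyte-specific gene were named, from 17549 candidates. For RAG2 they were VAMP3, RSBN1 and RC3H1, with r from 0.993 to 0.995. For RAG1 they were PPM1A, RPL36AL and HBS1L, with r from 0.966 to 0.985, and for DNTT they were AP1AR, MAP1LC3B and C4orf33, with r from 0.992 to 0.994. These are descriptions over 6 points from one slide, picked as the highest of many.

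**Figure D5:**
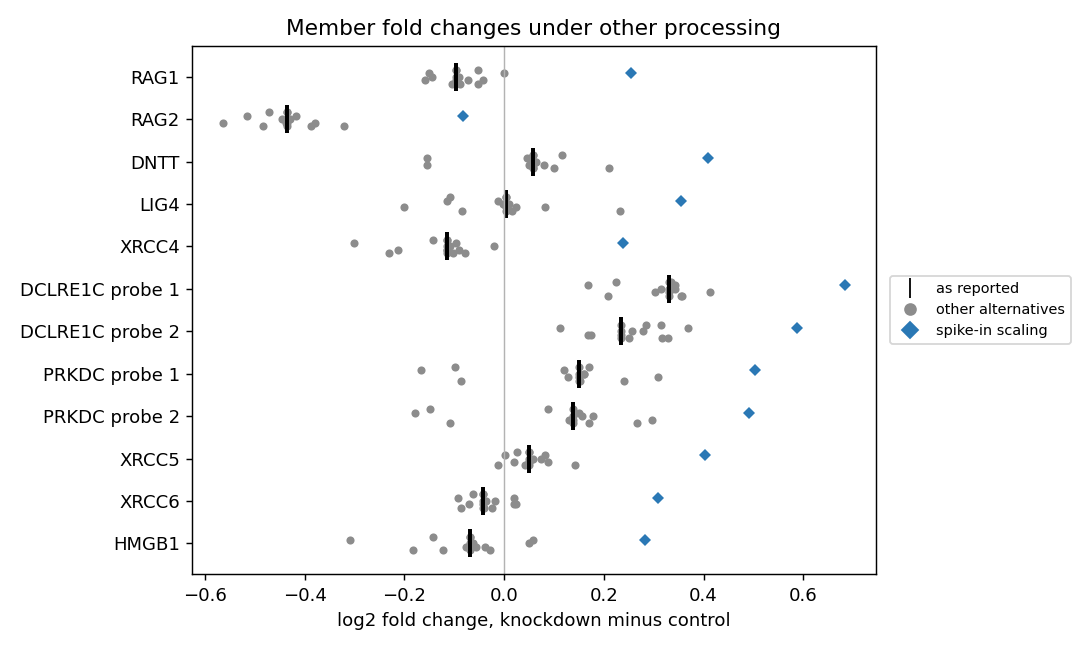
Log2 fold change of each member probe, knockdown minus control (x axis), as reported (black bars), under spike-in scaling (blue diamonds) and under the other alternatives (grey points). RAG2 stays at or under -0.08 and both DCLRE1C probes at or over 0.11, and spike-in scaling moves all probes up by 0.35.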

How the data were processed

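RNA of 6 REH cultures was labelled with Cy3 and hybridised to custom 1-color Agilent arrays, on 1 slide in 1 scan. The authors extracted the spots with Feature Extraction 10.7.1.1, and the deposited scanner files hold raw median intensity per spot, a processed intensity and flags. A second deposited table, with log2 values that the authors normalized for 27869 probes, was used here as an alternative.

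The study's methods name the VSN package, a threshold of 10% over the negative controls in 60% of a group, and limma. The VSN model (affine calibration, then inverse hyperbolic sine) was coded again for this purpose and fitted to the raw median intensities with the 0.9 quantile of least squares kept. Its generalised log2 scale understates changes of dim probes. Per array, values correlated with the deposited log2 values at r from 0.99906 to 0.99967. Probes were retained above 1.1 times the normalized 0.95 quantile of 308 negative control spots on 2 of 3 arrays of a group. The methods place this filter after normalization but do not give its scale or the statistic of the negative controls, and the form that came closest to the deposited probe set was taken.

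The test was limma 3.58.1 (R 4.3.3), two-sided, with Benjamini-Hochberg adjustment over all 27490 retained probes. The steps were also run on simulated arrays, drawn from the fit to these data without pairing or slide row effects. An exact permutation test of 3 against 3 arrays cannot give a p under 0.1. The number of arrays limits the precision. Same-numbered arrays deviated together from their group means (correlations 0.43, 0.29 and 0.20, against -0.33 to 0.19 for arrays of different number, with replicates 2 and 3 also correlated across numbers), so the numbers were taken to pair the samples, although the study names no block. Symbols came from a RefSeq table of a later assembly than the array's hg19 design, for 25728 of 34134 catalogue probes (75.4%). Promoter windows of 8 of 10 members were used here.

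Members and lists were chosen with earlier results of these data known. Named genes are all members, each called gene of a pathway list or otherwise the 2 with the lowest p, and the 3 most similar profiles. Other genes were named after their values were seen, as lineage markers, RAG regulators or the targeted gene. Alternatives covered normalization, scaling, filter, test, block, slide row, averaging and each array left out.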

Additional observations from a re-analysis of the deposited data

How the results depend on the processing

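No member was called under any of 17 alternatives. RAG2 stayed lower in knockdown, and DCLRE1C higher, in all that were run on them. Many of these could not reverse a sign, as changes of filter, test or block leave the values unchanged. Leaving out arrays cannot reverse RAG2 or the first DCLRE1C probe, whose groups do not overlap. Over all retained probes, 478 calls became 1069 with spike-in scaling, 224 without a filter, 1038 with the replicate block and 227 with slide row as a term. They numbered between 191 (without control replicate 2) and 553 (without knockdown replicate 1) when 1 array was left out, and 711 without replicate 1 of both groups. The block included all 478 and changed no call of a member or of the pathway lists. The split of lower and higher calls moved from 352 and 126 to 160 and 909 with spike-in scaling, which rests on 6 control probes and shifts the median of all probes by 0.35. The single call in the pathway lists, FOXP1, became 0 with the processed signal, without a filter, with slide row as a term, with genes averaged and with any array left out (lowest 0, highest 0). With spike-in scaling, the count was again 1, but the called probe was one of BACH2 (0.83) and FOXP1 was at -0.18. The cause was not tested.

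Several small differences changed sign. With spike-in scaling, RAG1 was at 0.25, XRCC4 at 0.24, XRCC6 at 0.31, HMGB1 at 0.28, TRAF6 at 0.13, WRN at 0.15, DNTTIP2 at 0.18, and the FOXP1 probes that were not called at 0.14 and 0.24. XRCC6 was at 0.020 with normexp and quantile normalization, and LIG4 at -0.0025 with the deposited values. With slide row as a term, LIG4 was at -0.013 and the PRKDC probes at -0.17 and -0.18. In that setting RAG1 was at -0.00091, HMGB1 at -0.31 and XRCC5 at 0.0011, without a change of sign. When 1 array was left out, DNTT ranged from -0.16 to 0.21, LIG4 from -0.11 to 0.23, the PRKDC probes from -0.098 to 0.31 and from -0.15 to 0.30, XRCC5 from -0.012 to 0.087, XRCC6 from -0.087 to 0.020 and HMGB1 from -0.18 to 0.057. Other values moved without a change of sign when 1 array was left out. RAG1 was at -0.15 without knockdown replicate 1, -0.042 without control replicate 2 and -0.053 without knockdown replicate 2, XRCC4 at -0.23 without control replicate 1 and -0.021 without control replicate 3 (-0.30 with slide row as a term), and the second DCLRE1C probe at 0.11 without knockdown replicate 2. Without control replicate 1, PAXX was at 0.20, DDB1 at 0.13 (0.061 with slide row as a term) and LIG1 at 0.092, and LIG1 was at 0.34, 0.33 and 0.12 without control replicate 2, knockdown replicate 1 and knockdown replicate 2. Without knockdown replicate 3, MDC1 was at 0.098 and TRAF6 at -0.13. FOXP1 at A_33_P3214303 ran from -0.18 to -0.041. Without replicate 1 of both groups, DNTT was at -0.15, LIG4 at -0.20, the PRKDC probes at -0.087 and -0.11 and XRCC6 at 0.023. The lymphocyte-specific mean minus the repair mean ranged from -0.33 (without knockdown replicate 1) to -0.14 (without control replicate 1). It was not computed with slide row as a term.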
